A study of Caenorhabditis elegans with 16 samples.

Results

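Small RNA libraries from adult male Caenorhabditis elegans that carried a prg-1 allele without the PAZ domain (ΔPAZ, 3 libraries) were compared with libraries from wild type males (5 libraries), 8 of the 16 libraries of the series. The members were chosen by their titles, all libraries titled as the PAZ mutant against all titled as wild type. The other libraries came from a prg-1 null mutant (5) and a prg-1 RNase mutant (3), and their values are given only where they place a ΔPAZ value. All animals were males picked at the mid-L4 stage in groups of 20 to 30, kept at 25 °C and collected whole 24 hours later, and no other allele or agent is named in the labels. The purified small RNA was treated with a pyrophosphatase, which lets RNAs with a 5′ triphosphate enter a library. The series' design text lists 3 ΔPAZ and 3 wild type libraries, and wild type replicates 4 and 5 are additional to that list. Whether the replicates are separate cultures is not stated in the labels, and every p-value below covers only how far these libraries differ from each other, a spread that could be technical.

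PRG-1 is the Piwi Argonaute of this worm. It binds 21U-RNAs, the piRNAs of C. elegans, which are 21 bases long, begin with U and are transcribed from many small genes that lie mostly in a pair of clusters on chromosome IV. In the germ line the piRNA-loaded protein scans transcripts and triggers the synthesis of secondary small RNAs (22G-RNAs) that silence the target. An Argonaute holds the 5′ end of its small RNA in the MID domain and the 3′ end in the PAZ domain, while the PIWI domain carries the fold of an RNase. In prg-1 null animals piRNAs are known to be lost, and the design text states that the libraries were made to compare piRNA levels between these genotypes.

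The libraries were unequal in depth, and ΔPAZ replicates 1 and 2 were the shallowest of the 8. Genome-mapped reads numbered 396813, 663498 and 954712 in ΔPAZ replicates 1 to 3 and between 781546 and 1860189 in wild type, and 41.8 to 51.6% of ΔPAZ reads mapped to the genome, against 39.8 to 68.3% of wild type reads. A single read was worth 2.52, 1.51 and 1.05 reads per 1000000 genome-mapped reads (RPM) in ΔPAZ replicates 1 to 3 and 0.538 to 1.28 RPM in wild type. ΔPAZ replicate 2 stood apart in makeup: bins with rRNA genes took 33.5% of its reads, against 14.3 and 16.6% in ΔPAZ replicates 1 and 3 and 6.71 to 25.1% in wild type, and bins with microRNA genes took 44.6%, against 60.1 and 53.0% in the other ΔPAZ libraries and 44.2 to 53.3% in wild type. All RPM values are shares of a library, so a larger share of one RNA class lowers the others. Small RNA counts hold no read that checks the deletion itself.

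The total of sense reads at piRNA loci was lower in ΔPAZ in most libraries, but the groups met. ΔPAZ replicates 1 to 3 had 258, 461 and 1527 such reads, against 2732, 5959, 1649, 882 and 2163 in wild type replicates 1 to 5. In RPM these were 650, 695 and 1599 in ΔPAZ, against 2162, 3203, 1602, 1129 and 2102 in wild type. ΔPAZ replicate 3 therefore lay beside wild type replicate 3 and above wild type replicate 4, while ΔPAZ replicates 1 and 2 lay below every wild type library. The means were 981 ± 536 RPM in ΔPAZ (SD, n = 3) and 2039 ± 774 RPM in wild type (SD, n = 5), a ratio of 0.481 that did not pass the threshold of 0.05 (exact two-sided permutation p = 0.0714, adjusted p = 0.119 over 10 measures). The smallest p this design of 3 against 5 allows is 0.0357, so a single measure at that value would not pass 0.05 after adjustment over 10. In whole animals, fewer germ cells and less piRNA per germ cell cannot be told apart.

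The authors counted separately the reads that they call 21U only, which leaves the other sense reads at the same loci as the remainder. 21U-only reads numbered 165, 249 and 1012 in ΔPAZ and 1711, 4105, 1003, 378 and 1349 in wild type. Their level was 416, 375 and 1060 RPM in ΔPAZ, against 1354, 2207, 974, 484 and 1311 RPM in wild type. The ranges overlapped, because ΔPAZ replicate 3 exceeded wild type replicates 3 and 4, and the ratio of means was 0.487 (617 ± 384 RPM in ΔPAZ, SD, n = 3, and 1266 ± 631 RPM in wild type, SD, n = 5; exact permutation p = 0.143, adjusted p = 0.179). Without ΔPAZ replicate 3 the ratio was 0.312. The ΔPAZ level was far from that of the null mutant, which lacks the protein that holds piRNAs: the 5 null libraries had 2.64 to 17.0 RPM, and the lowest ΔPAZ library exceeded the highest null library (ratio of means 51.0, exact permutation p = 0.0357, adjusted p = 0.0893). The RNase mutant had 1089 ± 307 RPM (SD, n = 3), and the ratio of ΔPAZ to it, 0.567, did not pass the threshold (exact permutation p = 0.200, with 0.100 the smallest possible).

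The other sense reads were the measure of level in which ΔPAZ and wild type did not meet. They were 234, 320 and 539 RPM in ΔPAZ, against 808, 997, 627, 645 and 791 RPM in wild type, so that the highest ΔPAZ library lay below the lowest wild type library. The means were 364 ± 157 RPM in ΔPAZ (SD, n = 3) and 774 ± 149 RPM in wild type (SD, n = 5), a ratio of 0.471 (exact permutation p = 0.0357, the smallest possible, adjusted p = 0.119). The null libraries averaged 364 ± 152 RPM (SD, n = 5; ΔPAZ over null 1.000, exact permutation p = 0.964), and the RNase libraries 2066 ± 566 RPM (SD, n = 3), with every ΔPAZ library below every RNase library (ratio 0.176, exact permutation p = 0.100, the smallest possible). With all reads of a library as the denominator in place of genome-mapped reads, the ratio to wild type was 0.418. The unadjusted p was then no longer under 0.05 (exact permutation p = 0.0714).

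Antisense reads at piRNA loci were few, 17, 43 and 107 in ΔPAZ replicates 1 to 3, and were 42.8, 64.8 and 112 RPM in ΔPAZ, against 90.2, 137, 67.0, 115 and 146 RPM in wild type. The groups overlapped (ratio 0.660, exact permutation p = 0.143, adjusted p = 0.179).

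The share of 21U-only reads among sense reads in ΔPAZ lay within the wild type range. 21U-only reads were 64.0% (Wilson 95% interval 57.9 to 69.6%), 54.0% (49.4 to 58.5%) and 66.3% (63.9 to 68.6%) of sense reads in ΔPAZ replicates 1 to 3, against 62.6, 68.9, 60.8, 42.9 and 62.4% in wild type. The intervals cover counting error only. The means, 61.4 ± 6.51% in ΔPAZ (SD, n = 3) and 59.5 ± 9.81% in wild type (SD, n = 5), differed by 1.90 percentage points (exact permutation p = 0.893), and the sign of that difference turned without ΔPAZ replicate 3 or without wild type replicate 4 (ratios 0.991 and 0.964). The share was 0.576 to 6.44% in the null and 33.5 to 35.9% in the RNase mutant, and every ΔPAZ library lay above all of them. ΔPAZ over null was 15.7 (exact permutation p = 0.0357, adjusted p = 0.0893) and ΔPAZ over RNase 1.78 (exact permutation p = 0.100, the smallest possible).

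**Figure D1:**
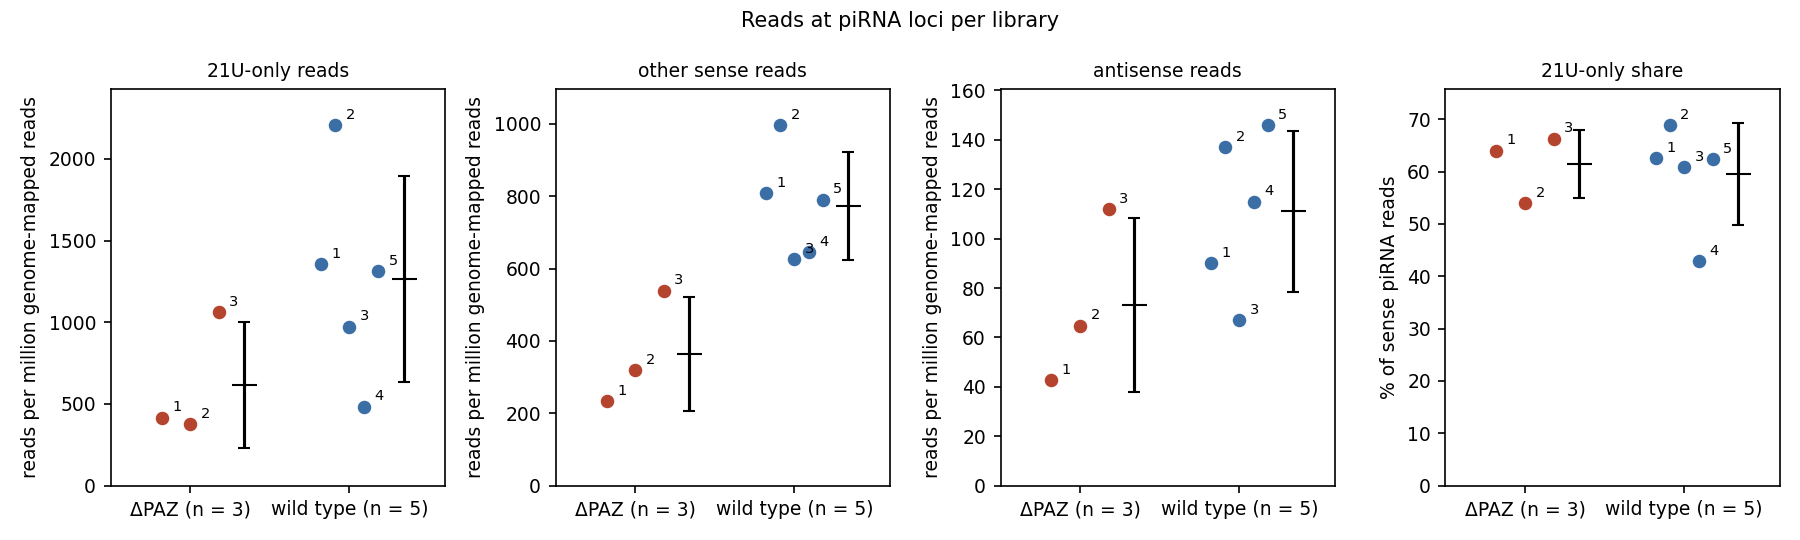
Reads at piRNA loci in each ΔPAZ (left) and wild type (right) library, in RPM for the first 3 panels and as a percentage of sense piRNA reads in the last; points are libraries numbered by replicate and the bar is the mean ± SD. The other sense reads are the panel without overlap (234 to 539 RPM in ΔPAZ, 627 to 997 RPM in wild type), and 21U-only reads overlap through ΔPAZ replicate 3 and wild type replicates 3 and 4.

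Fewer different piRNAs were seen in most ΔPAZ libraries. After every library was thinned to 396813 genome-mapped reads, the expected number of piRNAs with a read was 70.0, 86.1 and 199 in ΔPAZ, against 356, 449, 246, 128 and 313 in wild type. ΔPAZ replicate 3 lay above wild type replicate 4, and the means of 118 ± 70.0 in ΔPAZ (SD, n = 3) and 298 ± 121 in wild type (SD, n = 5) did not pass the threshold (ratio 0.396, exact permutation p = 0.0714, adjusted p = 0.119). Without ΔPAZ replicate 3 the ratio was 0.262. After thinning to 258 sense piRNA reads, which removes the difference in piRNA level, the numbers were 70.0, 84.3 and 128 in ΔPAZ, against 159, 154, 142, 107 and 146 in wild type (ratio 0.665, exact permutation p = 0.0714, adjusted p = 0.119). Counting only piRNAs with at least 2 reads at that depth turned the ratio to 1.16.

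The most-read piRNAs held a larger share of the piRNA reads in ΔPAZ males. The 10 most-read piRNAs of a library held 43.4, 34.9 and 29.3% of its sense piRNA reads in ΔPAZ, against 26.4, 25.9, 28.6, 25.4 and 28.8% in wild type, with no overlap. The means were 35.9 ± 7.09% in ΔPAZ (SD, n = 3) and 27.0 ± 1.58% in wild type (SD, n = 5; exact permutation p = 0.0357, the smallest possible, adjusted p = 0.119). ΔPAZ replicate 3, the deepest of its group, was only just above wild type replicate 5. Since a shallow library concentrates by sampling alone, the reads were also thinned to 258 per library. The share was then 43.4, 36.3 and 31.9% in ΔPAZ, against 27.9, 28.6, 30.1, 27.5 and 31.2% in wild type (exact permutation p = 0.0357). The groups again did not overlap, but ΔPAZ replicate 3 was again only just above wild type replicate 5. Without thinning, the null, with few 21U-RNAs, was more concentrated on average (47.9 ± 9.24%, SD, n = 5) and the RNase mutant less (17.5 ± 2.47%, SD, n = 3). The difference of ΔPAZ from the null did not pass the threshold (exact permutation p = 0.143). After thinning to 258 reads the null libraries had 37.4 to 60.2%, overlapping ΔPAZ, and the RNase libraries 18.6 to 23.1%. In the 100 piRNAs with most reads ΔPAZ had 100, 100 and 75.6% and wild type 60.5 to 91.3% (exact permutation p = 0.0714). ΔPAZ replicates 1 and 2 had 70 and 97 piRNAs with a read in all, which fixes their value at 100%.

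**Figure D2:**
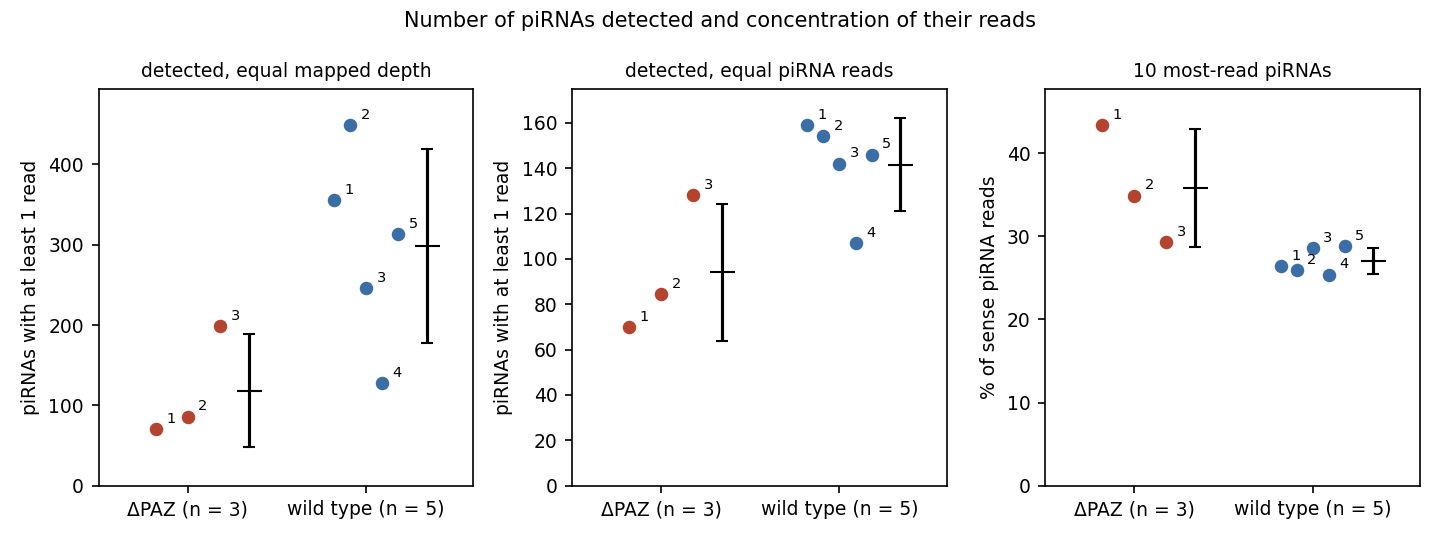
Expected number of piRNAs with at least 1 read after thinning to 396813 genome-mapped reads (left) and to 258 sense piRNA reads (middle), and the percentage of sense piRNA reads in the 10 most-read piRNAs of each library (right), for ΔPAZ and wild type libraries with mean ± SD. In the right panel the ΔPAZ libraries lie at 29.3 to 43.4%, above the wild type libraries at 25.4 to 28.8%, whereas wild type replicate 4 lies among the ΔPAZ libraries in the other panels.

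Rows of the per-piRNA table could be followed between libraries of one genotype but not between genotypes. Rows with a read in both of a pair of libraries were 24.1 to 56.2 times as frequent as by chance within ΔPAZ and 2.80 to 18.4 times within wild type, against 0.268 to 3.30 times between ΔPAZ and wild type. Single piRNAs are therefore neither named nor compared between genotypes here. Within ΔPAZ, 333 rows had a read in at least 1 library, 272 of them in 1 library, 43 in 2 and 18 in all 3. These 18 rows held 46.1, 35.6 and 30.5% of the sense reads of replicates 1 to 3. At 258 reads per library, 14.5 rows would be expected in all 3 ΔPAZ libraries and 225 in any, against 26.6 in all and 349 in any of wild type replicates 1 to 3. The row with the highest mean share in ΔPAZ had 23, 12 and 145 reads, or 8.91, 2.60 and 9.50% of sense piRNA reads. The matching row of wild type replicates 1 to 3, found by the same rule and not known to be the same piRNA, had 220, 415 and 112 reads, or 8.05, 6.96 and 6.79%.

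Reads from the whole genome were counted by the authors in 1006 bins of 100 kb of ce11, the table in which rows match between genotypes. Each bin covers several genes on both strands, and a value of it belongs to none of them alone. In all 104 bins were called (10.3% of those tested): 94 were lower in ΔPAZ (9.34%) and 10 were higher (0.994%) at an adjusted p under 0.05 (edgeR, all 16 libraries in one fit), and 359 had an unadjusted p under 0.05. The direction of this count rests on the scaling. With genome-mapped reads as library size the median bin had a log2 fold change of -0.43 in ΔPAZ over wild type, and with TMM factors, which centre the bulk of bins, it was -0.03 with 44 bins called (4.37%), 28 higher (2.78%) and 16 lower (1.59%). Between those scalings 26 calls were shared in the same direction. Without the 3 bins with most reads in the library size, 23 bins were called (2.29%), 12 higher (1.19%) and 11 lower (1.09%). Without rRNA bins 19 were called (1.89%), 7 higher (0.696%) and 12 lower (1.19%). With the reads of microRNA bins as library size, an alternative added after seeing the data, 45 were called (4.47%), 4 higher (0.398%) and 41 lower (4.08%). A fit with only the 8 ΔPAZ and wild type libraries called 1 bin higher and none lower (243 at an unadjusted p under 0.05). The count also rests on single libraries: it was 4 without ΔPAZ replicate 1, 5 without ΔPAZ replicate 2, 199 without ΔPAZ replicate 3, 36 without wild type replicate 2, 364 without wild type replicate 3, 60 without wild type replicate 4 and 43 without wild type replicate 5. By the libraries' ranges alone, 109 bins did not overlap (10.8%), 91 with every ΔPAZ library below every wild type library (9.05%) and 18 with every ΔPAZ library above (1.79%); 53 of these were also called. Against the null the same fit called 176 bins higher in ΔPAZ (17.5%) and 223 lower (22.2%, together 39.7%), and against the RNase mutant 95 higher (9.44%) and 250 lower (24.9%, together 34.3%). Fold changes below are on the log2 scale with their standard error (SE), ΔPAZ over wild type, and the position relative to the median bin is given where it matters.

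**Figure D3:**
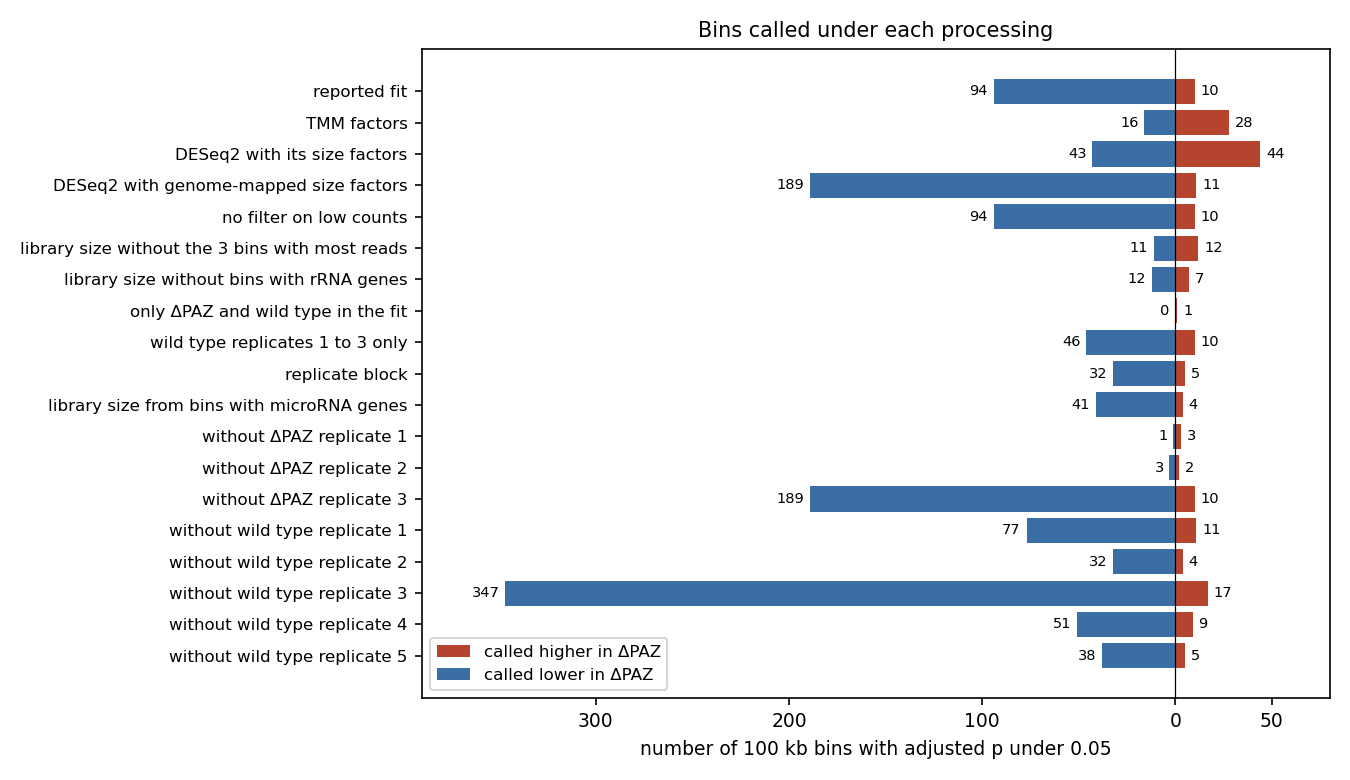
Number of 100 kb bins called higher (right of 0) and lower (left of 0) in ΔPAZ than in wild type at an adjusted p under 0.05, for the reported fit and each alternative. The reported fit called 10 higher and 94 lower, TMM factors 28 higher and 16 lower, and the fits without ΔPAZ replicate 1 or 2 called 4 and 5 bins in all.

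The piRNA gene clusters of chromosome IV were examined next. Cluster 2, from IV 13500001 to 17200000, spans 37 bins with 11388 of the 15363 annotated piRNA genes that fell in bins. Its reads made up 0.886, 0.773 and 1.16% of genome-mapped reads in ΔPAZ, against 1.38, 1.78, 1.07, 1.34 and 1.66% in wild type. ΔPAZ replicate 3 exceeded wild type replicate 3 and the other ΔPAZ libraries lay below all wild type libraries. Of the 37 bins 5 were called lower (against 9.34% of all bins) and none higher, and the median log2 fold change was -0.74, which is 0.31 below the median of all bins. With TMM factors the median was -0.37, 0.34 below all bins, and 1 bin was called lower (against 1.59% of all bins). Cluster 1, from IV 4500001 to 7000000, had 2 of 25 bins called lower and a median of -0.49, which is 0.06 below all bins. The remaining 113 bins of chromosome IV had 3 called higher, 11 lower (9.73%, also near all bins) and a median of -0.42.

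A cluster 2 bin, IV 15900001 to 16000000 with 381 annotated piRNA genes and 4 tRNA genes, was called lower under each of the 5 other scalings. It had 32.8, 57.3 and 70.2 RPM in ΔPAZ, against 270, 159, 195, 124 and 110 RPM in wild type, with no overlap (log2 fold change -1.65, SE 0.33, adjusted p = 0.0113). The null had 80.8 ± 10.1 RPM (SD, n = 5; ΔPAZ over null -0.56, adjusted p = 0.160) and the RNase mutant 189 ± 22.2 RPM (SD, n = 3; -1.78, adjusted p = 0.000498). The call was lost without ΔPAZ replicate 1 or 2 (highest adjusted p = 0.0670).

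The cluster 2 bin with the second most reads, IV 17000001 to 17100000 (178 piRNA genes and the microRNA gene mir-1832.2), had 469, 606 and 1034 RPM in ΔPAZ, against 1297, 2390, 1281, 1208 and 1376 RPM in wild type. Every ΔPAZ library lay below every wild type library (-1.10, SE 0.30, adjusted p = 0.0332), and with TMM factors the call was lost (-0.75, adjusted p = 0.0767). It was also lost without ΔPAZ replicate 1, ΔPAZ replicate 2 or wild type replicate 2 (highest adjusted p = 0.154). In this bin ΔPAZ stood between wild type and the other mutants: the null had 165 ± 31.0 RPM (SD, n = 5; ΔPAZ over null 2.09, SE 0.29, adjusted p = 7.2e-06) and the RNase mutant 148 ± 32.9 RPM (SD, n = 3; 2.25, SE 0.34, adjusted p = 5.0e-05).

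The most-read cluster 2 bin, IV 14000001 to 14100000, holds 298 piRNA genes and mir-52, a mir-51 family microRNA. It had 1058, 641 and 1212 RPM in ΔPAZ and 2221, 2807, 1431, 1191 and 1825 RPM in wild type, and ΔPAZ replicate 3 was just above wild type replicate 4 (-0.97, SE 0.30, adjusted p = 0.0459). None of the 5 other scalings kept this call (TMM -0.57, adjusted p = 0.236).

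In cluster 1 the bin IV 6300001 to 6400000 (44 piRNA genes and 21 protein-coding genes) had 615, 446 and 1038 RPM in ΔPAZ, against 1263, 2366, 2020, 2050 and 2657 RPM in wild type, without overlap. It was lower by -1.56 (SE 0.33, adjusted p = 0.0146) and was called under all 5 other scalings. Both other mutants were above ΔPAZ here, with 2794 ± 443 RPM in the null (SD, n = 5; adjusted p = 7.5e-05) and 4079 ± 501 RPM in the RNase mutant (SD, n = 3; -2.54, adjusted p = 2.7e-05). The call was lost without ΔPAZ replicate 1 or 2 (highest adjusted p = 0.0841). By contrast, the 2 most-read bins of cluster 1 overlapped between the groups and were not called. IV 5500001 to 5600000, with 211 piRNA genes and mir-228, stood at -0.73 (adjusted p = 0.276). IV 4700001 to 4800000, with 8 piRNA genes, stood at -0.07 (adjusted p = 0.954).

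Between chromosomes the X stood apart in its median. Its 178 bins had a median of -0.07 (4 higher and 5 lower, 2.81% lower), which is 0.36 above all bins, and 51 of them lay below the median of all bins. With TMM factors it was 0.35 above all bins, with 6 bins higher and 2 lower (over all bins 2.78% higher and 1.59% lower). Against wild type replicates 1 to 3 alone the distance was smaller, with a median of -0.14 on the X and -0.29 over all bins. There 1 bin of the X was higher and 8 lower, against 10 higher and 46 lower of all 1006 bins. The share of lower calls on the X was then close to that of all bins. Without wild type replicate 1 the median of the X was 0.02. The summed reads of the X did not show this: they were 7.75, 4.34 and 6.07% of genome-mapped reads in ΔPAZ, against 6.47, 8.56, 6.30, 5.66 and 7.68% in wild type. The autosomes had medians of -0.46 (I, 1 higher and 18 lower of 151, 11.9% lower), -0.50 (II, 0 and 20 of 153, 13.1% lower), -0.54 (III, 0 and 20 of 138, 14.5% lower), -0.49 (IV, 3 and 18 of 175, 10.3% lower) and -0.45 (V, 2 and 13 of 210, 6.19% lower). Over all bins 0.994% were called higher and 9.34% lower. The outer parts of the autosomes (arms), where repeats are dense in this worm, had 6 bins higher and 54 lower of 550 (9.82% lower) and a median of -0.47. The central parts had 0 higher and 35 lower of 277 (12.6% lower) and a median of -0.51.

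By gene class, the shares called can be read against 0.994% of all bins higher and 9.34% lower. Bins with microRNA genes had 1 called higher and 18 lower of 182 (9.89% lower) and a median of -0.42, 0.01 above all bins. Bins with tRNA genes had 2 higher and 22 lower of 297 (7.41% lower), with snoRNA genes 3 and 29 of 274 (10.6% lower), with snRNA genes 1 and 2 of 68 (2.94% lower), and with rRNA genes 0 and 1 of 5. Bins with histone genes, whose mRNAs are known to be targeted by small RNAs in prg-1 mutants, had 0 higher and 2 lower of 17 and a median of -0.67, which is 0.24 below all bins. That distance was not kept against wild type replicates 1 to 3 alone, with -0.27 in histone bins and -0.29 over all bins. With a replicate block in the fit the medians were -0.34 and -0.31. Bins with msp genes, which encode the major sperm proteins, had 0 called of 14 and a median of -0.32 (0.10 with TMM factors). The 2 bins with a known piRNA target gene were not called: the bin of xol-1, the switch gene of sex determination, had 113, 54.3 and 73.3 RPM in ΔPAZ, against 43.5 to 152 RPM in wild type (-0.38, SE 0.39, adjusted p = 0.498), and the bin of bath-45 had 675, 707 and 1095 RPM in ΔPAZ, against 865 to 1840 RPM in wild type (-0.73, SE 0.29, adjusted p = 0.0806).

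**Figure D4:**
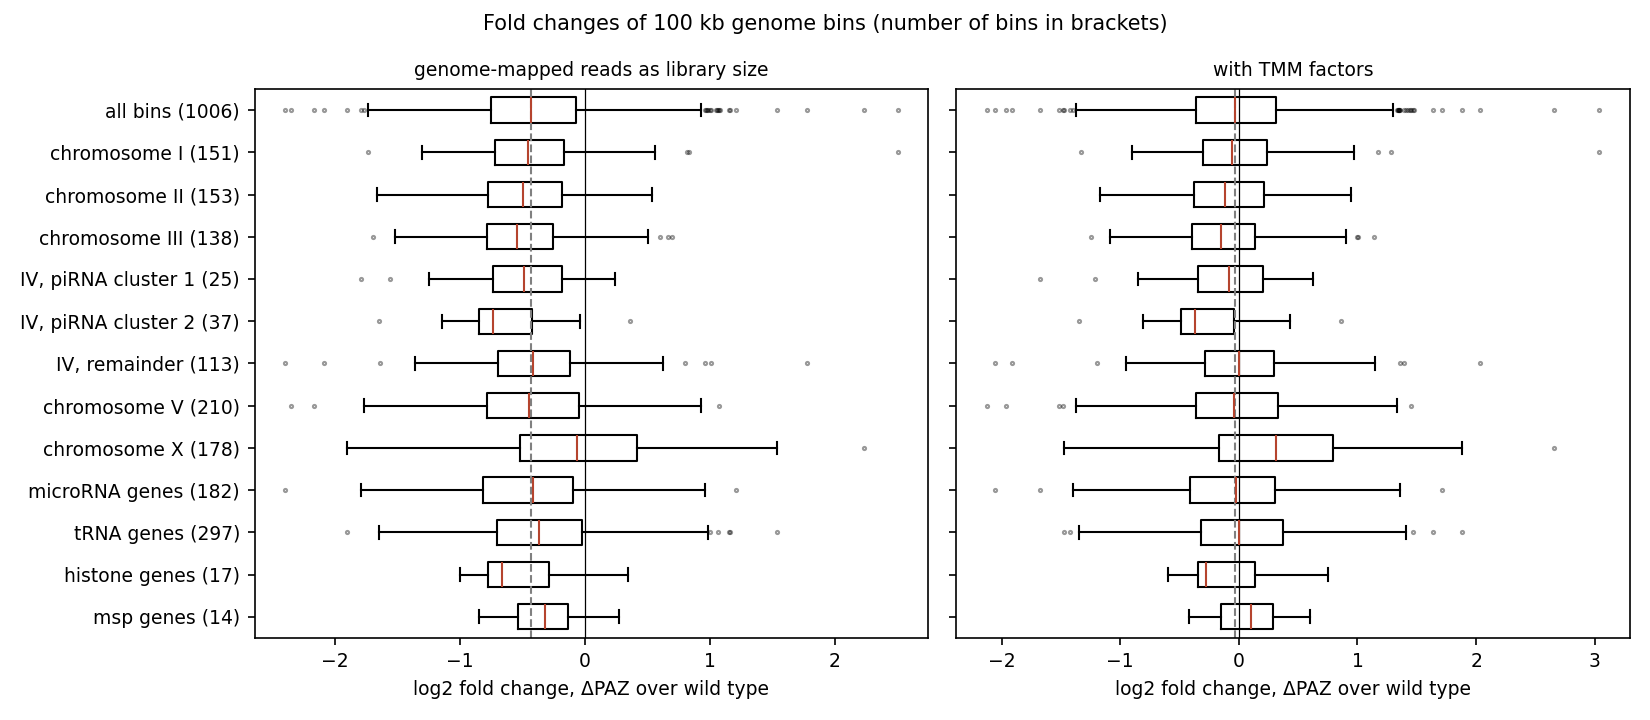
Log2 fold change of 100 kb bins in ΔPAZ over wild type by chromosome, piRNA cluster and gene class, with genome-mapped reads as library size (left) and with TMM factors (right); boxes span the quartiles, whiskers reach the last bin within 1.5 times the box, and the dashed line is the median of all bins. piRNA cluster 2 sits to the left of that line (medians -0.74 and -0.37) and chromosome X to the right of it (-0.07 and 0.32) under both scalings.

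The named changes were taken by rule from called bins without overlap and with a higher mean of at least 50 RPM. By that rule 47 bins lower and 6 higher qualified. The 10 largest falls and the 6 rises are named, so the lack of overlap in them is part of the choice. Their ΔPAZ values were part of it too. The p-values of these bins against the null and the RNase mutant are therefore not independent of the choice. All 10 falls lost their call without ΔPAZ replicate 1 or ΔPAZ replicate 2 or both (1 and 2 of them remained called), and all 10 kept it without any other single library. With TMM factors 5 of the 10 remained called, and none in the fit of 8 libraries.

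The largest fall was in the bin of the microRNA genes mir-51 and mir-53, IV 11000001 to 11100000. It had 257, 264 and 356 RPM in ΔPAZ, against 2239, 2842, 1451, 594 and 606 RPM in wild type. The ΔPAZ libraries were close to each other and below all wild type libraries, but the wild type libraries themselves split, with replicates 4 and 5 well under replicates 1 to 3. The log2 fold change was -2.40 (SE 0.54, adjusted p = 0.0177), 1.97 below the median bin, and with TMM factors it was -2.05 (adjusted p = 0.0592). The null had 1644 ± 885 RPM (SD, n = 5; ΔPAZ over null -2.49, adjusted p = 0.00102) and the RNase mutant 4833 ± 1056 RPM (SD, n = 3; -4.04, adjusted p = 4.9e-05).

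mir-51 and mir-53 belong to the mir-51 family, broadly expressed microRNAs whose joint loss is lethal to embryos of this worm. The 3 bins of the family (mir-51 and mir-53, mir-52, and mir-54 to mir-56) had 2 called lower, where 9.34% of all bins were, and a median of -1.20, 0.76 below all bins. With TMM factors none of the 3 was called and the median lay 0.80 below all bins. Without wild type replicate 2 the median was -0.79, and with wild type replicates 1 to 3 alone it was -1.72. The bin of mir-54, mir-55 and mir-56, X 13100001 to 13200000, had 1247, 800 and 1028 RPM in ΔPAZ, against 2609, 4662, 2887, 615 and 958 RPM in wild type, again with wild type replicates 4 and 5 low, and it was not called (-1.20, SE 0.57, adjusted p = 0.134). Against wild type replicates 1 to 3 alone, which leaves out those low libraries, it was called (-1.72, SE 0.49, adjusted p = 0.0461). The other 2 bins of the family were called as well. That comparison called 46 of all 1006 bins lower, with a median of -0.29. Summed over the family's bins, reads were 0.256, 0.170 and 0.260% of genome-mapped reads in ΔPAZ and 0.707, 1.03, 0.577, 0.240 and 0.339% in wild type, so ΔPAZ overlapped wild type through replicate 4.

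The other microRNA families were not called in any bin. The let-7 family (let-7, mir-48, mir-84, mir-241 and mir-795, timers of larval development) had a median of -0.24 over 4 bins, the mir-35 family of early embryos -0.71 over 2, the abundant mir-58 family -0.23 over 4 and the mir-64 family -0.83 in 1. The let-7 and mir-58 medians changed sign with TMM factors (0.13 and 0.21) and without ΔPAZ replicate 2 (0.06 and 0.04), and the mir-35 median was -0.42 without ΔPAZ replicate 2. Of the mir-58 family mir-1834 found no match in the annotation.

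The next fall, V 13300001 to 13400000 (25 protein-coding genes, among them somi-1 and nhr-129), had 40.3, 63.3 and 37.7 RPM in ΔPAZ, against 368, 102, 503, 134 and 101 RPM in wild type (-2.35, SE 0.57, adjusted p = 0.0209). IV 700001 to 800000 had 88.2, 116 and 130 RPM in ΔPAZ, against 520, 278, 1167, 207 and 218 RPM in wild type (-2.09, SE 0.45, adjusted p = 0.0153). V 11000001 to 11100000, which holds the actin genes act-1, act-2 and act-3 of muscle, had 154, 142 and 147 RPM in ΔPAZ, against 510, 201, 1192, 296 and 214 RPM in wild type (-1.71, SE 0.45, adjusted p = 0.0292). In these bins wild type replicates 1 and 3 were the highest libraries and the ΔPAZ libraries lay within a narrow range, and none of the 3 calls remained with TMM factors (adjusted p = 0.0870, 0.0675 and 0.145).

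The 2 named falls in which ΔPAZ was called above the null differed from the piRNA cluster bins in gene content. X 4100001 to 4200000 holds 18 protein-coding genes, among them nck-1, an adaptor of signalling, and vha-12, a subunit of the vacuolar proton pump, and 1 piRNA gene. It had 45.4, 140 and 228 RPM in ΔPAZ, against 362, 592, 310, 475 and 492 RPM in wild type (-1.66, SE 0.37, adjusted p = 0.0177). The null had 29.0 ± 6.13 RPM (SD, n = 5; ΔPAZ over null 2.27, SE 0.36, adjusted p = 3.6e-05) and the RNase mutant 64.2 ± 19.5 RPM (SD, n = 3; 1.13, SE 0.40, adjusted p = 0.0345). The ΔPAZ mean therefore lay between wild type and both, while ΔPAZ replicate 1, at 45.4 RPM, lay below the RNase mean. III 12100001 to 12200000 (11 protein-coding genes, among them osm-12, a gene of sensory cilia) had 166, 240 and 214 RPM in ΔPAZ, against 482, 731, 291, 931 and 937 RPM in wild type (-1.70, SE 0.33, adjusted p = 0.0113). The null had 62.5 ± 12.2 RPM (SD, n = 5; ΔPAZ over null 1.73, SE 0.31, adjusted p = 0.000152) and the RNase mutant 115 ± 18.4 RPM (SD, n = 3; 0.84, adjusted p = 0.0670). These 2 bins were called under all 5 other scalings. Of the 10 named falls, ΔPAZ was called lower than the null in 4, higher in 2 and neither in 4. It was called lower than the RNase mutant in 4, higher in 1 and neither in 5. Over all bins ΔPAZ was called lower than the null in 22.2% and higher in 17.5%. Against the RNase mutant the shares were 24.9% lower and 9.44% higher. The falls were chosen for low ΔPAZ values, which favours calls in the lower direction.

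The remaining named falls lay on the X. X 9300001 to 9400000 (12 protein-coding genes, among them the neuropeptide gene flp-20) had 55.4, 10.6 and 30.4 RPM in ΔPAZ, against 120, 109, 76.7, 101 and 172 RPM in wild type (-1.91, SE 0.43, adjusted p = 0.0177). X 8800001 to 8900000, with 11 tRNA genes, had 25.2, 64.8 and 52.4 RPM in ΔPAZ, against 161, 103, 174, 184 and 137 RPM in wild type (-1.64, SE 0.35, adjusted p = 0.0153). These bins rest on 58 and 103 ΔPAZ reads in all.

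The neighbouring bin rose. X 8900001 to 9000000, with 8 tRNA genes, had 75.6, 45.2 and 59.7 RPM in ΔPAZ, against 31.7, 14.0, 30.1, 12.8 and 13.6 RPM in wild type, without overlap (1.54, SE 0.40, adjusted p = 0.0258), and was called under all 5 other scalings on 117 ΔPAZ reads. It lost its call without ΔPAZ replicates 1 or 2 or wild type replicates 2 or 5.

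Of the 6 named rises, the one with most reads was V 17600001 to 17700000, a bin of 27 protein-coding genes with several chemoreceptor genes (str-89, str-92 and str-93) and the F-box genes fbxa-108 and fbxa-192. It had 587, 425 and 956 RPM in ΔPAZ, against 328, 389, 216, 246 and 382 RPM in wild type (1.07, SE 0.27, adjusted p = 0.0229). ΔPAZ replicate 2 was only just above wild type replicate 2, and without ΔPAZ replicate 1 or 3 the call was lost (highest adjusted p = 0.0741). The mutants were widely spaced in this bin. ΔPAZ was above the null, which had 115 ± 18.7 RPM (SD, n = 5; 2.52, SE 0.27, adjusted p = 4.5e-07), and below the RNase mutant, which had 2794 ± 105 RPM (SD, n = 3; -2.09, SE 0.32, adjusted p = 5.0e-05).

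IV 400001 to 500000 contains mir-5550 and 15 protein-coding genes, among them eri-1, an exonuclease gene of the endogenous siRNA pathway. It had 244, 511 and 413 RPM in ΔPAZ, against 196, 177, 150, 242 and 237 RPM in wild type (0.96, SE 0.28, adjusted p = 0.0389). X 12500001 to 12600000 (npr-4, a neuropeptide receptor, and scd-1 among 7 protein-coding genes) had 181, 157 and 138 RPM in ΔPAZ, against 101, 62.9, 108, 72.9 and 54.4 RPM in wild type (0.99, SE 0.29, adjusted p = 0.0402). In these bins ΔPAZ was also above the null (1.38 and 1.92, adjusted p = 0.000542 and 2.6e-05) and above the RNase mutant (1.62 and 1.44, adjusted p = 0.000717 and 0.00246). Those comparisons use the high ΔPAZ values by which the bins were chosen.

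The other named rises were X 12200001 to 12300000 with several carboxylesterase genes (cest-3, cest-7 and cest-8), which had 63.0, 79.9 and 71.2 RPM in ΔPAZ, against 60.1, 30.6, 23.3, 24.3 and 29.2 RPM in wild type (1.08, SE 0.34, adjusted p = 0.0475), and V 6200001 to 6300000 with the endocytosis gene rme-1, which had 134, 188 and 288 RPM in ΔPAZ, against 127, 117, 90.3, 105 and 99.1 RPM in wild type (0.93, SE 0.25, adjusted p = 0.0292). All 6 named rises were called with TMM factors, 1 remained with the library size taken from microRNA bins, and none in the fit of 8 libraries. Without ΔPAZ replicate 1, ΔPAZ replicate 2, wild type replicate 2 or wild type replicate 5 only 1 of the 6 remained in each case, 2 with wild type replicates 1 to 3 alone, 3 without ΔPAZ replicate 3, 5 without wild type replicate 1 and 4 without wild type replicate 4.

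**Figure D5:**
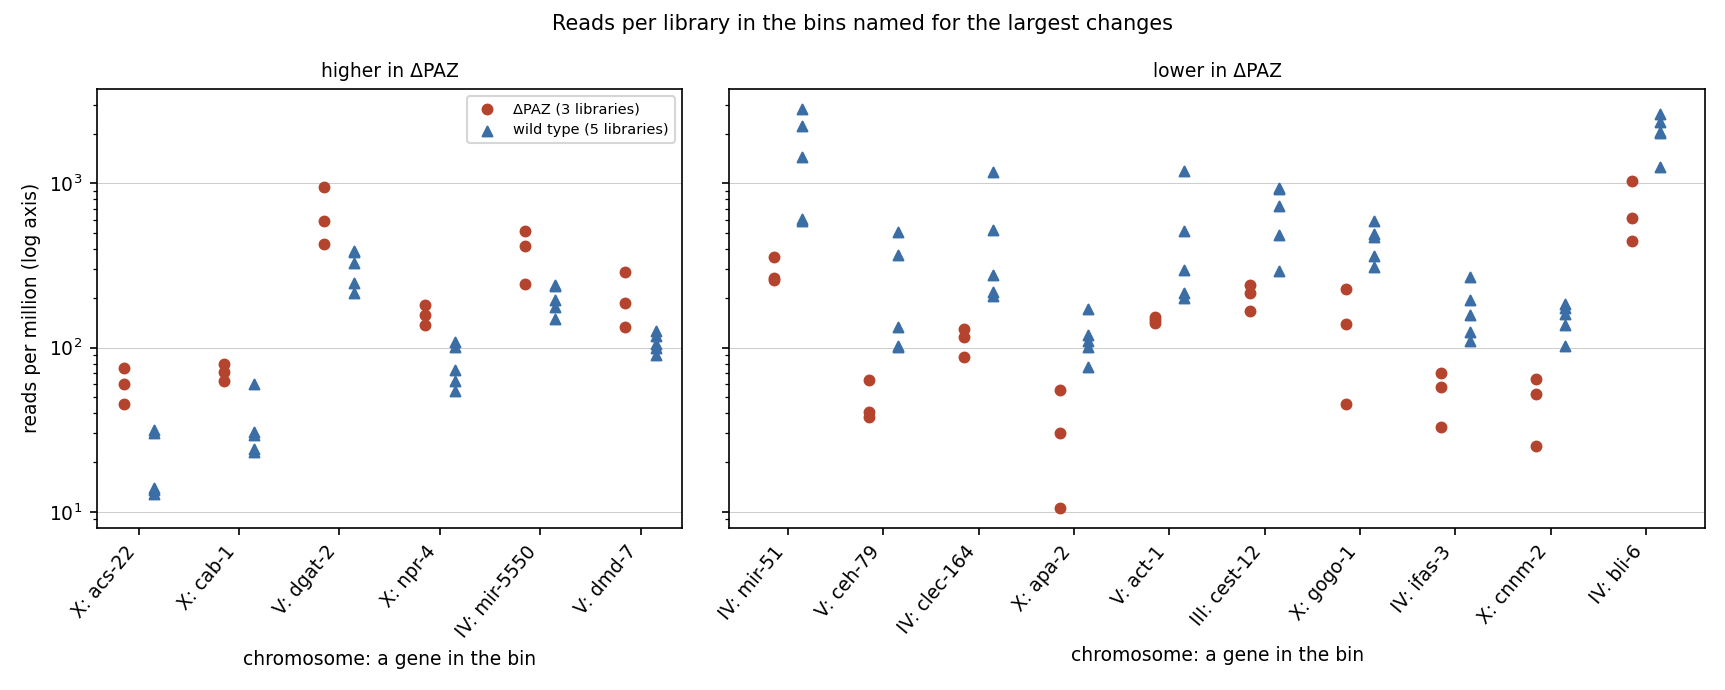
RPM on a log axis of each ΔPAZ (circles) and wild type (triangles) library in the 6 named rises and 10 named falls; each bin is labelled by its chromosome and 1 gene in it, which is not claimed as the source of its reads. The bin of mir-51 shows the ΔPAZ libraries at 257 to 356 RPM under a wild type range of 594 to 2842 RPM.

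The other 4 bins called higher overlapped between the groups and were named after their values were seen. I 12300001 to 12400000, with 33 protein-coding genes, many of glycosyltransferases and acyltransferases (gly-16, gly-17 and oac-35 among them), had 2170, 681 and 241 RPM in ΔPAZ, against 254, 161, 136, 200 and 152 RPM in wild type. It was the bin called in the fit of 8 libraries (adjusted p = 0.0196) and its log2 fold change was 2.51 with an SE of 0.42 (adjusted p = 0.00524), yet ΔPAZ replicate 3 lay below wild type replicate 1, and without ΔPAZ replicate 1 the call was lost (1.35, adjusted p = 0.0670). IV 1400001 to 1500000 had 993, 5980 and 8636 RPM in ΔPAZ, against 2327, 1394, 1491, 1168 and 1228 RPM in wild type, so that ΔPAZ replicate 1 was the lowest of the 8 libraries and the other ΔPAZ libraries the highest (1.77, SE 0.44, adjusted p = 0.0229; highest adjusted p without ΔPAZ replicate 2 or 3 = 0.0933). X 2100001 to 2200000 had 30.2, 342 and 35.6 RPM in ΔPAZ, against 19.2 to 38.8 RPM in wild type. That rise came from ΔPAZ replicate 2 alone: without it the log2 fold change was 0.20 (adjusted p = 0.786), against 2.24 with it (SE 0.53, adjusted p = 0.0207). IV 13200001 to 13300000, with the caspase gene ced-3, had 164, 313 and 439 RPM in ΔPAZ, against 83.5 to 213 RPM in wild type (1.01, SE 0.31, adjusted p = 0.0454), and its call was lost without any 1 ΔPAZ library and without wild type replicate 1, 2 or 4 (highest adjusted p = 0.163).

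Under each of the 5 other scalings 7 bins were called lower (0.696% of all bins) and 3 higher (0.298%). Those not yet described, named after their values were seen, were all lower in ΔPAZ without overlap except III 11900001 to 12000000. I 1800001 to 1900000 had 209, 256 and 327 RPM in ΔPAZ, against 411 to 782 RPM in wild type (-1.30, SE 0.26). IV 7800001 to 7900000, the bin of mir-83, had 179, 235 and 219 RPM in ΔPAZ, against 346 to 704 RPM in wild type (-1.36, SE 0.26). III 11900001 to 12000000, with mir-86 and mir-8211, had 209, 134 and 274 RPM in ΔPAZ, against 255 to 827 RPM in wild type (-1.52, SE 0.33). All 3 lost their call without ΔPAZ replicate 1, and I 1800001 and III 11900001 also without ΔPAZ replicate 2 (highest adjusted p = 0.0843). None of the 3 was called in the fit of 8 libraries (adjusted p = 0.0904, 0.0595 and 0.0862 in the order given).

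None of the 10 bins with most reads was called. They varied widely between libraries of one genotype. IV 12700001 to 12800000, with 4 snRNA genes, had 267489, 122786 and 154191 RPM in ΔPAZ, against 57052 to 272972 RPM in wild type (0.53, SE 0.65, adjusted p = 0.577). I 15000001 to the chromosome's end, with 4 annotated rRNA genes, had 51420, 215402 and 61897 RPM in ΔPAZ, against 36712 to 87656 RPM in wild type, and ΔPAZ replicate 2 was above every other library of the comparison (0.82, SE 0.54, adjusted p = 0.271). V 17100001 to 17200000, with 14 rRNA genes and the sls-1 genes of the SL1 trans-splicing leader, had 72664, 102591 and 86824 RPM in ΔPAZ, against 17798, 13388, 7190, 179063 and 69312 RPM in wild type. Here every ΔPAZ library was above wild type replicates 1, 2, 3 and 5 and below replicate 4 (0.61, SE 0.80, adjusted p = 0.602). Against wild type replicates 1 to 3 alone the bin was called higher (2.77, SE 0.69, adjusted p = 0.0312).

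I 2900001 to 3000000 had 28895, 62100 and 62973 RPM in ΔPAZ, against 82385, 27106, 50299, 38181 and 3003 RPM in wild type (0.35, SE 0.75, adjusted p = 0.761). ΔPAZ and wild type shared a range there, while the null had 8575 ± 8713 RPM (SD, n = 5; ΔPAZ over null 2.58, SE 0.75, adjusted p = 0.00962) and the RNase mutant 1068 ± 74.5 RPM (SD, n = 3; 5.59, SE 1.04, adjusted p = 0.000319). The annotation places mir-4931, 16 protein-coding genes and 1 snoRNA gene in it.

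In 4 other most-read bins with microRNA genes ΔPAZ replicate 2 was the lowest of the 8 libraries: 16062 RPM in the bin of mir-57, 8767 RPM in that of mir-80, 6434 RPM in that of mir-228 and 8145 RPM in that of mir-81 and mir-82. The fold changes were -0.54, -0.82, -0.73 and -0.26 with adjusted p from 0.244 to 0.695. The remaining most-read bins, IV 9300001 to 9400000 and IV 4700001 to 4800000, had log2 fold changes of -0.02 and -0.07.

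Bins of marker microRNAs of muscle, neurons, glia and intestine were read in every ΔPAZ library, with whole animals as the labelled tissue. All 1006 bins passed the count filter, so reads in a marker bin do not by themselves show a tissue. The bin of the glial mir-228 also holds 211 piRNA genes. The bin of the muscle marker mir-1, which also holds mir-235 and 1 rRNA gene, had 9055, 7242 and 7680 RPM in ΔPAZ, against 5223 to 11610 RPM in wild type (0.01, SE 0.34), and that of let-7 had 950, 219 and 811 RPM in ΔPAZ, against 475 to 902 RPM in wild type (0.00, SE 0.35). The neuronal markers mir-124 (-0.55, SE 0.27) and lsy-6 (-0.81, SE 0.31), the timing gene lin-4 (-0.94, SE 0.39), mir-71 (-0.53, SE 0.37) and mir-58.1 (-0.21, SE 0.31) were not called. Of the 10 marker bins 1 was called lower (against 9.34% of all bins), that of the intestinal mir-60, with 217, 265 and 307 RPM in ΔPAZ and 466, 582, 253, 637 and 488 RPM in wild type (-0.88, SE 0.27, adjusted p = 0.0438). None of the 5 other scalings kept that call (TMM -0.46, adjusted p = 0.145). The bin of mir-35 to mir-41, microRNAs of the hermaphrodite germ line and embryos and thus a check for other sexes and stages, had 615, 371 and 515 RPM in ΔPAZ, against 503 to 680 RPM in wild type (-0.22, SE 0.25, adjusted p = 0.545).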

How the data were processed

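Small RNA of whole males was sequenced after acid pyrophosphatase treatment and TruSeq small RNA library preparation, per the labels' protocols. Trimming with cutadapt 3.7 and inspection with FastQC 0.12.0 are named in the submitters' processing notes; which aligner was used, how reads with several matches were treated and what made a read 21U only were not given in the sources used here. The authors deposited read counts per library, sense and antisense counts for 15913 piRNA names, and counts per 100 kb bin of ce11, per the file headers. The authors also deposited RPM per library, per 1000000 genome-mapped reads; RPM recomputed here from the counts equalled them. The 6 ΔPAZ columns of the per-piRNA table (sense and antisense) began with their own total, which was taken off, and 1 cell that was not a number counted as 0. Gene classes per bin came from Ensembl release 115 (WBcel235, the assembly of ce11) and symbols from a RefSeq gene table.

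Single measures were tested by exact two-sided permutation of group means, and p-values of the 10 measures were adjusted together (Benjamini-Hochberg). A single measure was called at an unadjusted p under 0.05, and none passed 0.05 after adjustment. All 1006 bins had 10 or more reads in 3 or more libraries and entered edgeR 4.0.16 under R 4.3.3 (glmQLFit, glmQLFTest), with all 16 libraries in one fit and the genome total as library size. A bin was called at a Benjamini-Hochberg adjusted p under 0.05, and the SE of a log2 fold change is its size divided by the root of F. Thinning used exact expectations, or means of 200 draws for the most-read piRNAs. Named bins were the 10 largest rises and 10 largest falls among called bins without overlap and with a mean of at least 50 RPM, the 10 bins with most reads, marker microRNA bins and the 2 most-read bins of each piRNA cluster. Alternatives were TMM, DESeq2 1.42.0, other library sizes, subsets of libraries, a replicate block and leaving out each replicate; the library size from microRNA bins was added after seeing the data. The members and lists were chosen with earlier results of these data known. No pair of libraries of a genotype agreed within sampling noise (lowest chi-square over degrees of freedom 66.2). Wilson intervals cover counting error only.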

Additional observations from a re-analysis of the deposited data

Results flagged for a closer look

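Of 47 groups of 5 wild type libraries tested for a library far from the others, 4 held one, where chance gives one in about 5% of groups. Wild type replicate 4 had 91.3% of its sense piRNA reads in its 100 most-read piRNAs, against 60.5 to 69.0% in the other wild type libraries. Wild type replicate 1 had 60.1 RPM in the bin X 12200001 to 12300000, a named rise, against 23.3 to 30.6 RPM in the others. Wild type replicate 3 had 272972 RPM in the snRNA bin IV 12700001 to 12800000, against 57052 to 117329 RPM in the others. Wild type replicate 2 had 2390 RPM in the cluster 2 bin IV 17000001 to 17100000, against 1208 to 1376 RPM in the others. Groups of 3, ΔPAZ among them, were not tested for this.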

How the results depend on the processing

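Calls on bins were the results that moved most. The 104 bins called (10 higher, 94 lower) became 44 with TMM factors (28 and 16), 87 with DESeq2 and its size factors (44 and 43), 200 with DESeq2 and genome-mapped size factors (11 and 189), 23 without the 3 most-read bins (12 and 11), 19 without rRNA bins (7 and 12), 56 with wild type replicates 1 to 3 (10 and 46), 45 with the library size from microRNA bins (4 and 41) and 1 with only the 8 libraries in the fit (1 and 0). Leaving out one replicate gave 4 to 364 bins (2 to 17 higher, 1 to 347 lower). The replicate block gave 37 (5 and 32). For replicates 1 to 3, the log2 RPM deviations from the group mean were correlated over the bins between the groups. Same-numbered libraries reached at most -0.194, which gave no sign of pairing by number. With so few libraries per group it cannot show that pairing is absent. With the block, bins X 13100001 (-1.65, adjusted p = 0.0138) and V 17100001 (2.62, adjusted p = 0.00799) were called. The X then had 0 bins higher and 10 lower of 178, against 5 higher and 32 lower of all 1006 bins. Its share of lower calls was thus above that of all bins, the reverse of the reported fit. Its median was -0.13, against -0.31 over all bins. The ratio of other sense reads RPM (0.471) was no longer called with all reads as denominator (0.418), wild type replicates 1 to 3 (0.450), the block (0.450) or any library left out (0.358 to 0.555). The share in the 10 most-read piRNAs (ratio 1.33) was no longer called with wild type replicates 1 to 3 (1.33), the block (1.33) or a library left out (1.19 to 1.45). Except for the first of these, those designs cannot reach 0.05. The 21U-only share turned from 1.03 to 0.958 with wild type replicates 1 to 3 and with the block, and spanned 0.964 to 1.09 with a library left out. piRNAs detected at equal piRNA reads turned from 0.665 to 1.16 with at least 2 reads.

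Uncalled named bins that changed sign (log2) are listed by their scaling. With TMM, DESeq2 size factors and without the 3 most-read bins the bin of mir-35 had 0.18, 0.16 and 0.05, mir-58.1 0.22, 0.19 and 0.08, mir-81 0.19, 0.16 and 0.03, IV 4700001 0.20, 0.18 and 0.15, IV 9300001 0.25, 0.24 and 0.19, and let-7 0.40, 0.37 and 0.25. Without rRNA bins IV 4700001 had 0.08, IV 9300001 0.12 and let-7 0.07. With wild type replicates 1 to 3 let-7 had 0.04 and I 2900001 -0.05, with the block IV 12700001 had -0.08, and with microRNA bins mir-1 had -0.10. With a library left out the ranges were -0.13 to 1.16 (I 15000001), -0.46 to 0.47 (IV 9300001), -0.59 to 0.11 (mir-81), -0.45 to 0.46 (IV 4700001), -0.36 to 0.41 (let-7) and -0.11 to 0.19 (mir-1). The cause was not tested. The 258 piRNA reads of ΔPAZ replicate 1 limit every piRNA measure.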
